A study of Mus musculus with 4 samples.

Results

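The miR-148 and miR-152 family was examined in small RNA libraries of mouse brain cortex. Its members are all mature miRNAs in the deposited count table whose name begins with miR-148 or miR-152, with any letter and from either arm of the hairpin, and 6 of the 942 listed miRNAs met this rule: miR-148a-3p, miR-148b-3p, miR-152-3p, miR-148a-5p, miR-148b-5p and miR-152-5p. The 4 libraries came from mice of strain B6C3 aged 9 months. WT1 and WT2 were wild-type mice, and APP3 and APP4 were AD mice, which carry the APPswe and PS1ΔE9 transgenes, a chimeric mouse/human amyloid precursor protein with the Swedish mutation and a mutant human presenilin 1, both directed to neurons of the central nervous system. According to the methods of the study the mice were 2 sibling pairs. Group 1 held WT1 and APP4, group 2 held WT2 and APP3, and each comparison within a group rests on 1 mouse of each genotype.

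MiRNAs are cut from hairpin precursors and guide Argonaute proteins to messenger RNAs that match their seed, the bases at positions 2 to 8 of the mature strand. Of the strands of the duplex, the guide is kept and the passenger is mostly degraded, and in this family the 3p arm is the usual guide. miR-148a, miR-148b and miR-152 share their seed and are therefore predicted to bind the same targets, among which the DNA methyltransferase Dnmt1 is the best known.

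The mature sequences are shown because the seeds define the family, and because reads of the guide strands can only be told apart at a few positions. All 6 members were matched to RefSeq mature sequences of GRCm38.p6, printed 5′ to 3′ with the seed in capitals.
miR-148a-3p: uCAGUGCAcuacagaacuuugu
miR-148b-3p: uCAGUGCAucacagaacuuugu
miR-152-3p: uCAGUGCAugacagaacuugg
miR-148a-5p: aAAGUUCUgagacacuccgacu
miR-148b-5p: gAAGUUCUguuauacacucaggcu
miR-152-5p: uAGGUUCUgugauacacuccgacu

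The 3 guide strands carried one seed, and no other listed miRNA with a RefSeq sequence had it. Counted from the 5′ end of the first strand, miR-148a-3p and miR-148b-3p differed by C9U and U10C and were identical at 20 of 22 positions. miR-148b-3p and miR-152-3p differed by C10G and U20G over 21 positions, and miR-148a-3p and miR-152-3p by C9U, U10G and U20G. The methods of the study allow up to 2 mismatches and changed ends, but also state that no mismatch was allowed for miRBase. The study's annotation counts nevertheless list miRBase reads with mismatches. Reads could therefore have been split between these strands, and differences among them are uncertain to that extent. Outside the family the closest sequences among listed miRNAs matched to RefSeq were much further away, with at least 7 differing positions. Listed miRNAs without a RefSeq match were not compared. The passenger strands were less alike. miR-148a-5p and miR-148b-5p shared a seed with each other and with none of the other listed miRNAs matched to RefSeq, 754 in all, while miR-152-5p shared its seed with none of them.

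The hairpins show how both arms are placed. They are printed from RefSeq, GRCm38.p6, with the 5p arm and then the 3p arm in capitals.
Mir148a: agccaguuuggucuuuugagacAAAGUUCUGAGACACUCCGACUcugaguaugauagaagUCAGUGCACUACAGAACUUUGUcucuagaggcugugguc
Mir148b: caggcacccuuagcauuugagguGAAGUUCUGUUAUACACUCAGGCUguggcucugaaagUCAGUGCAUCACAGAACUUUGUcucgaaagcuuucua
Mir152: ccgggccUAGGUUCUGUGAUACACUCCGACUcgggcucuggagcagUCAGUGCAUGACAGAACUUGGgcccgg

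Mir148a lies on the minus strand at chr6:51269812-51269910, outside the annotated genes of GENCODE vM21, and the nearest protein-coding gene, Nfe2l3, is 163 kb away. Mir148b lies on the plus strand at chr15:103285125-103285221 in an intron of Copz1, in all 4 transcripts that span it. Mir152 lies on the plus strand at chr11:96850393-96850465 in an intron of Copz2, in all 3 transcripts that span it. Copz1 and Copz2 encode paralogous zeta subunits of the coatomer, the coat of vesicles that travel between the Golgi and the endoplasmic reticulum, and both hairpins are on the strand of their host. No other annotated miRNA gene lay within 10 kb of any of the 3 hairpins.

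The miRNA reads, whose sum per library was used for scaling, numbered 26085776 and 22078713 for WT1 and WT2 and 21266937 and 19048747 for APP3 and APP4, and levels are given as reads per 1000000 of them (RPM). At this depth 3 reads stand for 0.115 to 0.157 RPM, and every member was far above this in each library. The 4 neuronal miRNAs checked (miR-124-3p, miR-9-5p, miR-128-3p and miR-138-5p) were abundant, with a sum of 72692 to 80270.0 RPM per library. Of these miR-138-5p was called higher in the AD mouse in both groups, and the others were not called and each had opposite signs in the groups. Among the miRNAs changed in both groups, the study names miR-138-5p as the exception for which qRT-PCR did not match sequencing. In the study's supplement its qRT-PCR value is still higher in AD mice, though by less than in sequencing. APP4 stood apart in the miR-200 family and the miR-183 cluster, of which 8 of 8 miRNAs were called higher in it than in WT1, and their sum was 5862 RPM there and 576 to 1024 RPM elsewhere. In group 2, 4 of the 8 were called lower in APP3. Of 7 blood miRNAs, none at 0 in any library, 4 were called higher in APP4 than in WT1 and 1 in APP3 than in WT2. Among the called, miR-142-3p and miR-144-3p had 8.47 RPM or less in each library. The sum of the 7 was 4428 and 5181 RPM in the WT mice and 4721 and 3798 in the AD mice. Most of this sum was miR-486-5p, which went the other way in group 1, with 3899.5 RPM in WT1 and 3053 in APP4, and was not called. Of 3 vessel miRNAs 0 were called in either group, and their sum was 24863 and 25329.5 RPM in the WT mice and 21765 and 17836 in the AD mice. For all miRNAs the share called was 11.6% in group 1 and 6.81% in group 2. With TMM, a scaling that gives each library a factor from most of its miRNAs, 2 of the 7 blood miRNAs were called higher in group 1. Of the 3 vessel miRNAs 1, miR-143-3p, was then called lower in APP4, with a log2 fold change of -0.71. It made up most of the vessel sum, with 23901.5 RPM in WT1 and 16628 in APP4. With TMM miR-145a-5p was lower in APP4 (-0.31) and not called, whereas miR-126-3p was higher (0.23), with 797 RPM in WT1 and 1058 in APP4. In a bulk cortex sample, fewer cells of a type and fewer miRNA copies per cell cannot be told apart.

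Levels of the family spanned more than 2 orders of magnitude, with the guide strand of miR-148a far ahead. miR-148a-3p had 3922 and 3203 RPM in WT1 and WT2 and 3997 and 2768 RPM in APP3 and APP4, and ranked between 35th and 51st of all miRNAs. The lowest and the highest level were thus both found in AD mice, with the WT mice between them. miR-148b-3p had 1040.1 and 902 RPM in the WT mice, in the same order, and 907 and 844 RPM in the AD mice, and ranked between 72nd and 90th. WT1 was highest, APP4 was lowest, and the other two mice were nearly level. miR-152-3p, the scarce guide strand, had 37.5 and 37.1 RPM in WT1 and WT2 and 31.8 and 49.2 RPM in APP3 and APP4. The WT mice were level and the AD mice lay on either side of them. These are read levels without correction for length, and the strands differ in length by at most a few bases.

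**Figure D1:**
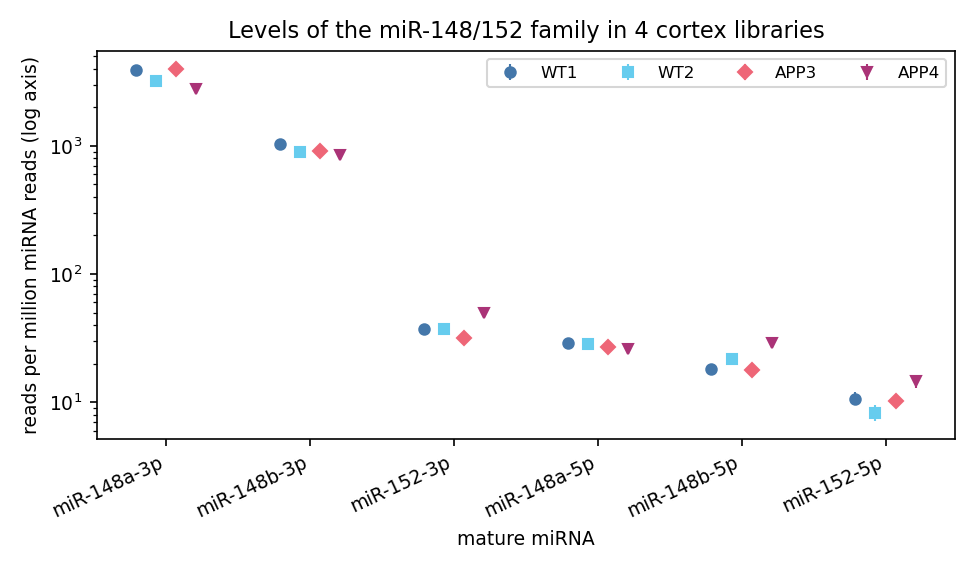
RPM of each member (log axis) in WT1, WT2, APP3 and APP4, with 95% Wilson intervals that cover counting error only and are mostly smaller than the symbols. miR-148a-3p and miR-148b-3p sit at 844 RPM or more in each library, and the other 4 members at 49.2 RPM or less.

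The passenger strands were counted at 8.24 to 29.2 RPM. miR-148a-5p had 29.2 and 28.4 RPM in WT1 and WT2 and 26.9 and 26.1 RPM in APP3 and APP4, the narrowest range of the family. miR-148b-5p had 18.1 and 21.7 RPM in the WT mice and 17.7 and 29.0 RPM in the AD mice, so that APP4 was highest and APP3 lowest. miR-152-5p had 10.7 and 8.24 RPM in the WT mice and 10.2 and 14.6 RPM in the AD mice, again with APP4 highest. In the order of levels, miR-148a-3p, miR-148b-3p and miR-152-3p did not overlap with each other or with a passenger strand in any library. Between miR-148a-5p and miR-148b-5p the order was not fixed, since in APP4 the latter was the higher of the pair, with 95% Wilson intervals of 23.9 to 28.5 RPM for miR-148a-5p and 26.7 to 31.5 for miR-148b-5p.

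Summed over the 3 guide strands, which share the seed, the family had 4999.5 and 4143 RPM in WT1 and WT2 and 4937 and 3661 RPM in APP3 and APP4. miR-148a-3p made up 75.6% to 81.0% of this sum, miR-148b-3p 18.4% to 23.1% and miR-152-3p 0.644% to 1.34%. The ratio of miR-148a-3p to miR-148b-3p reads was 3.77 and 3.55 in WT1 and WT2 and 4.40 and 3.28 in APP3 and APP4, so that both ends of its range were AD mice. APP4 also had the largest share of miR-152-3p. The highest level of a member was 1.12 to 1.77 times its lowest over the 4 mice, where the median was 1.39 over the 379 miRNAs that averaged 10 RPM or more.

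To learn whether the family differed between an AD mouse and its sibling, Fisher's exact test (two-sided) was run on the reads of each miRNA in both libraries, with the false discovery rate (FDR) of Benjamini and Hochberg over all miRNAs with a read. A call needed an FDR under 0.05 together with a difference of 1.5-fold or more, the limits given in the methods of the study. These limits gave 104 calls in group 1 and 61 in group 2, more than the study itself lists for either group. The lists of the study hold no member of the family. The test compares 2 libraries and not the genotypes, and standard errors (SE) of its log2 fold changes cover counting error only. In group 1 the guide strands of miR-148a and miR-148b were lower in APP4, and miR-148b-5p, the passenger strand of miR-148b, was higher. The test called 1 of the 6 members, miR-148b-5p, whose log2 fold change of APP4 against WT1 was 0.68 (SE 0.09, FDR 3.20e-13), and 11.6% of all tested miRNAs were called, 87 higher and 17 lower (46 and 36 with the TMM scaling given next). Scaled instead by TMM, all log2 fold changes of this pair moved by -0.18. The change of miR-148b-5p was then 0.50 and no longer called, whereas that of miR-148a-3p went from -0.50 (SE 0.01, with an FDR too small to be stored as other than 0) to -0.69 and was called. When the reads were first scaled to 1000000 per library and rounded, the value of miR-148b-5p was 0.67 with an FDR of 0.492, and it was not called. This setting keeps the fold change but leaves only a small part of the reads, so scarce miRNAs lose calls through it. With it 32 miRNAs were called in group 1 and 23 in group 2, which is nearer to the length of the study's lists.

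The other members of group 1 stayed under 1.5-fold. miR-148b-3p had a log2 fold change of -0.30 (SE 0.01, FDR 1.53e-98), miR-152-3p of 0.39 (SE 0.07, FDR 1.30e-08) and miR-152-5p of 0.45 (SE 0.12, FDR 0.000724). For miR-148a-5p it was -0.16, with a 95% interval of -0.32 to 0.0052 and an FDR of 0.129. The directions of the guide strands were therefore unlike, with the abundant miR-148a-3p and miR-148b-3p lower in APP4 and the scarce miR-152-3p higher. Under TMM each of the 6 kept its sign. Summed over the guide strands the log2 difference was -0.45.

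In group 2 none of the 6 members was called between APP3 and WT2, where 6.81% of all miRNAs were. miR-148a-3p was higher in APP3 by a log2 fold change of 0.32 (SE 0.01), again with a stored FDR of 0. miR-148b-5p had -0.29 (SE 0.10, FDR 0.0110) and miR-152-3p -0.22 (SE 0.07, FDR 0.00920), both under 1.5-fold. miR-148b-3p was level, with a log2 fold change of 0.01 and a 95% interval of -0.02 to 0.04, and with TMM it was -0.02. The values of miR-148a-5p and miR-152-5p were -0.08 (FDR 0.596) and 0.31 (FDR 0.0930). Summed over the guide strands, the log2 difference was 0.25, against the -0.45 of group 1.

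**Figure D2:**
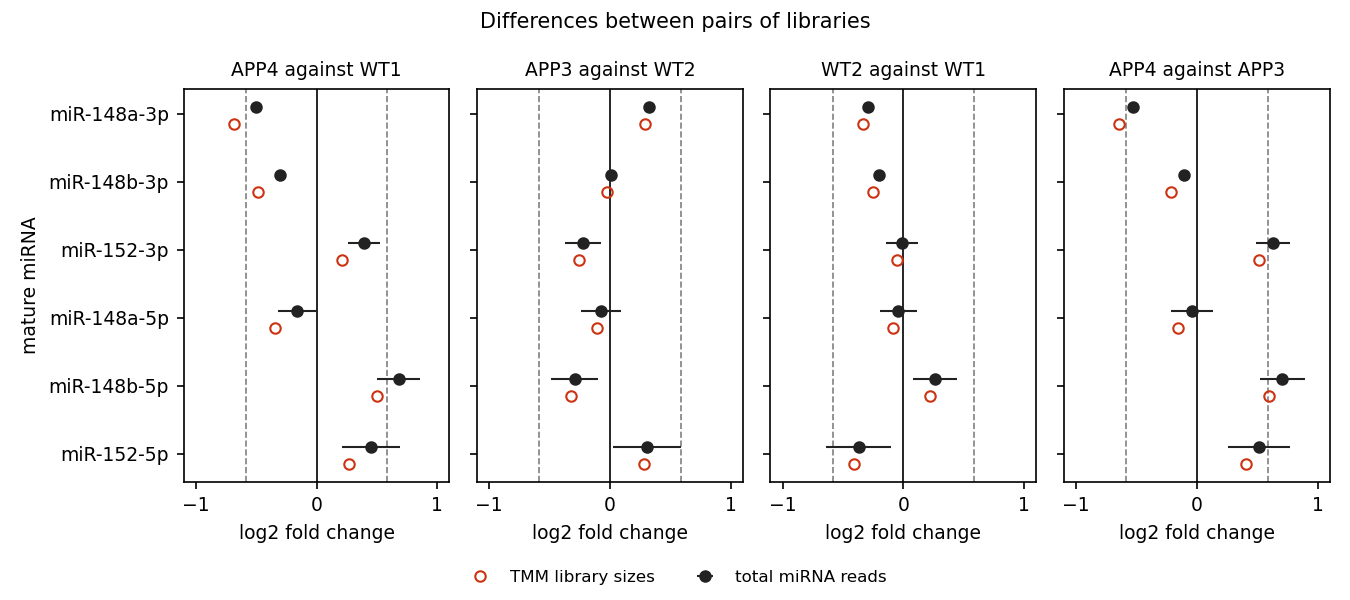
Log2 fold changes of the 6 members in 4 comparisons of 2 libraries, scaled by total miRNA reads (filled, bars are 95% intervals from counting error) and by TMM (open), with dashed lines at 1.5-fold. miR-148b-5p passes the line to the right in APP4 against WT1 (0.68) and against APP3 (0.71), and miR-148a-3p passes it to the left in both with TMM (-0.69 and -0.64).

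The sibling groups thus disagreed for part of the family. Of the 3 members with an FDR under 0.05 in both groups, miR-148a-3p, miR-148b-5p and miR-152-3p, all had opposite signs in the groups, and this held with TMM. With Bonferroni's adjustment miR-148b-5p and miR-152-3p had an adjusted p of 1 in group 2, and scaled to 1000000 reads neither passed in either group, so that under these settings miR-148a-3p alone passed in both. miR-148a-3p is also the most abundant member, and the scaling to 1000000 reads weighs most on scarce ones. Among the 853 miRNAs tested in both groups, 240 passed this FDR in both and 107 of them (44.6%) had opposite signs. The median log2 fold change of the members was 0.12 in group 1 and -0.03 in group 2, and that of all tested miRNAs was 0.21 and 0.05.

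**Figure D3:**
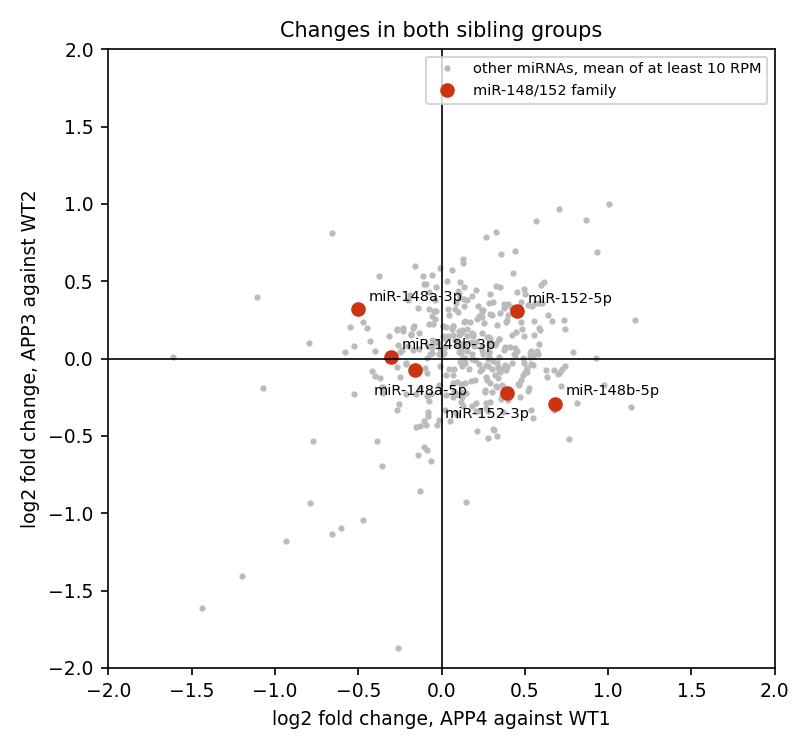
Log2 fold change of APP4 against WT1 (horizontal) and of APP3 against WT2 (vertical) for the 379 miRNAs that averaged 10 RPM or more, 7 of which lie outside the axes, with the family in red. miR-148a-3p lies in the upper left part (-0.50, 0.32), miR-148b-5p (0.68, -0.29) and miR-152-3p (0.39, -0.22) in the lower right, and miR-148b-3p at (-0.30, 0.01).

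The same rule was applied to mice of one genotype, as a measure of the difference between individuals. Mice of one genotype come from different sibling groups, so differences between these groups are part of this measure. Between the WT mice 0 of the 6 members were called, against 10.1% of all miRNAs, and the largest log2 fold change of WT2 against WT1 was -0.37 (SE 0.14, FDR 0.0202), for miR-152-5p. miR-148a-3p differed by -0.29 (SE 0.01) and miR-148b-3p by -0.20 (SE 0.01, FDR 1.02e-51). Between the AD mice 2 of the 6 members were called, against 8.05% of all miRNAs. These were miR-148b-5p, with a log2 fold change of APP4 against APP3 of 0.71 (SE 0.10, FDR 5.61e-13), and miR-152-3p, with 0.63 (SE 0.07, FDR 1.74e-17). miR-148a-3p had -0.53 (SE 0.01). With TMM, which moved this pair by -0.11, miR-148b-5p was still called at 0.60, miR-152-3p was not at 0.52, and miR-148a-3p was called at -0.64. Scaled to 1000000 reads per library, neither miR-148b-5p (0.67, FDR 0.486) nor miR-152-3p (0.61, FDR 0.287) was called, although both values stayed above 1.5-fold. For miR-148b-5p, miR-152-3p and miR-148a-3p the difference between the AD mice was therefore close to or above the larger of the differences within the sibling pairs. For miR-148a-3p this holds by 0.53 against 0.50 without TMM, and with TMM the sibling pair of group 1 differed more (-0.69 against -0.64). The members named here are those with opposite signs in the sibling groups, and all comparisons reuse the same libraries. A large difference between the AD mice is thus partly built in for them, and is not a separate measurement. APP4 is also the library with the high miR-200 and miR-183 miRNAs, and their part in these differences was not tested.

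With the mice as replicates, the genotypes were compared over all 4 libraries with edgeR's quasi-likelihood test and TMM. All 6 members passed the filter on low counts, 0 of them had an adjusted p or an unadjusted p under 0.05, and among the 623 miRNAs tested 0% had an adjusted p under 0.05 and 36 miRNAs an unadjusted one. DESeq2 likewise called 0 miRNAs, with 28 at an unadjusted p under 0.05. miR-148a-3p had a mean of 3563 ± 508 RPM (SD, n = 2) for the WT mice, against 3383 ± 869 (SD, n = 2) for the AD mice, with a log2 fold change of AD against WT of -0.20 (SE 0.26, edgeR adjusted p 0.958). miR-148b-3p had 971 ± 97.3 RPM in the WT and 876 ± 45.0 in the AD mice (SD, n = 2 each), with -0.29 (SE 0.20, edgeR adjusted p 0.929). For miR-152-3p the means were 37.3 ± 0.222 and 40.5 ± 12.3 RPM (SD, n = 2 each) and the log2 fold change -0.03 (SE 0.24, edgeR adjusted p 0.995), whose sign differs from that of the RPM means because of TMM. The intervals of these values were wide. They ran from -0.72 to 0.32 for miR-148a-3p, from -0.68 to 0.11 for miR-148b-3p and from -0.51 to 0.45 for miR-152-3p, on a normal approximation at 95%.

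The passenger strands were not called either. The log2 fold change in edgeR was -0.25 (SE 0.21) for miR-148a-5p, 0.09 (SE 0.25) for miR-148b-5p and 0.24 (SE 0.24) for miR-152-5p, and their adjusted p was 0.958, 0.986 and 0.958. With 1 mouse left out, miR-152-5p ranged from 0.0186 without APP4 to 0.49 without WT1, and was 0.0571 without WT2 and 0.42 without APP3. The median over the 6 members was -0.12, against -0.02 over all miRNAs tested. In RPM, both AD mice lay on one side of both WT mice for 1 of the 6 members, miR-148a-5p, and for 36.0% of all miRNAs tested. Its mean was 28.8 ± 0.580 RPM in the WT and 26.5 ± 0.532 in the AD mice (SD, n = 2 each), and the 95% Wilson intervals of WT2 (26.2 to 30.7) and APP3 (24.8 to 29.2) overlapped. Per 1000000 clean reads, the scaling that the authors deposited beside the counts, this was so for 3 of the 6, miR-148a-5p and miR-148b-3p (lower in AD mice) and miR-152-5p (higher), and for 34.2% of all. With 1 AD mouse left out, the edgeR log2 fold change of miR-148a-3p was -0.57 without APP3 and 0.08 without APP4, and it was -0.0031 without WT1 and -0.35 without WT2. That of miR-148b-3p was -0.13 without WT1 and -0.19 without APP4.

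Because both arms come from one hairpin, the share of the 5p arm is independent of how a library is scaled. It was 0.784% of the miR-148a reads over all libraries, 2.23% for miR-148b and 21.9% for miR-152, and the minor arm had a median share of 4.11% over the 278 hairpins with at least 100 reads. The miR-152 hairpin was thus the one in which the arms were least unequal. For miR-148b the 5p share of the WT mice was 1.71% (WT1, 95% Wilson interval 1.56 to 1.87) and 2.35% (WT2, 2.15 to 2.56). That of the AD mice was 1.92% (APP3, 1.73 to 2.12) and 3.32% (APP4, 3.06 to 3.60). APP4 was thus highest, and its interval overlapped with no other. For miR-148a the share was 0.738% and 0.877% in WT1 and WT2 and 0.668% and 0.936% in APP3 and APP4. For miR-152 it was 22.2% and 18.2% in the WT mice and 24.3% and 22.9% in the AD mice. WT2 was lowest for miR-152, whereas for both miR-148 hairpins WT2 and APP4 were above WT1 and APP3.

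**Figure D4:**
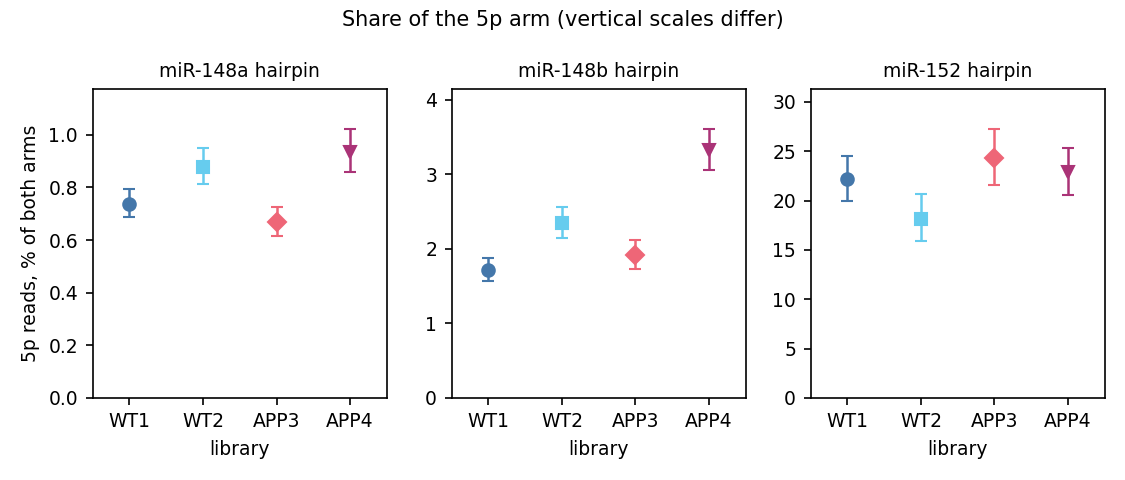
Reads of the 5p arm as a percentage of the reads of both arms, for the 3 hairpins in each library, with 95% Wilson intervals that cover counting error only. The vertical scales differ between hairpins, each from 0. For miR-148b, APP4 (3.32%) stands above the other libraries (1.71% to 2.35%).

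The 5p and 3p reads of each hairpin with at least 10 reads in both libraries were set against each other in the same test, over all such hairpins, with a call at an FDR under 0.05 and odds at least 1.5-fold apart. Between APP4 and WT1 1 of the 3 hairpins was called, miR-148b, with a log2 odds ratio of the 5p arm of 0.98 (SE 0.09, FDR 1.62e-25), and 12.5% of all hairpins tested were. Between APP3 and WT2 0 of the 3 were called, against 9.84% of all. The log2 odds ratio there was -0.30 for miR-148b (SE 0.10, FDR 0.0130), -0.40 for miR-148a (SE 0.08, FDR 1.73e-05) and 0.53 for miR-152 (SE 0.16, FDR 0.00639). For miR-148a it was 0.35 (SE 0.08, FDR 0.000274) between APP4 and WT1, opposite to group 2, and for miR-152 it was 0.06, with a 95% interval of -0.21 to 0.33. Between the WT mice 0 of the 3 hairpins were called and 14.8% of all were. Between the AD mice miR-148b was called, with 0.81 (SE 0.10, FDR 4.94e-16), and 12.6% of all were. With a limit of 2-fold in the odds miR-148b was called in none of the 4 comparisons.

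Other miRNAs known to repress DNA methyltransferases were compared in the same way. Of 6 such miRNAs (miR-29a-3p, miR-29b-3p, miR-29c-3p, miR-126-3p, miR-342-3p and miR-185-5p), group 1 had 1 called higher in the AD mouse and 0 lower, where 11.6% of all miRNAs were called, and group 2 had 0 higher and 2 lower, where 6.81% were. The first was miR-29c-3p, which targets Dnmt3a and Dnmt3b, with a log2 fold change of 0.59, which was 0.41 with TMM and then not called. The other two were miR-342-3p, with -1.87, and miR-185-5p, with -0.93, both of which have been tied to Dnmt1, and both were also called with TMM. In edgeR's test over the 4 mice 0 of the 6 passed an adjusted p of 0.05.

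Levels over the 4 libraries were also compared with those of other miRNAs, by the root mean square difference of the log2 RPM after the mean of each miRNA was taken out, for the 252 miRNAs that averaged 50 RPM or more. Most like miR-148a-3p were miR-151-3p, at 0.05, and miR-191-5p, at 0.10. Most like miR-148b-3p were miR-181d-5p and miR-192-5p, both at 0.04. Most like miR-152-3p were let-7g-5p, at 0.03, and let-7b-5p, at 0.05, and not the other guide strands of its own family. These distances rest on 4 libraries that all of them share, and are a description.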

How the data were processed

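The authors trimmed and filtered the reads, kept those of 18 to 35 nucleotides, used Bowtie to match these with miRBase 19, and took the number of mature plus variant reads per miRNA from CLC Genomics Workbench. They deposited these counts without normalization for 942 miRNAs and 4 libraries, beside RPM values, headed TPM, for which the total of clean reads was the divisor. Genome steps of the study used GRCm38, whereas the submitters' processing notes name mm9 and CASAVA 1.8. Hairpins and sequences here are from RefSeq and GENCODE vM21 on GRCm38, and 754 of the 942 names matched a RefSeq mature sequence.

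RPM here were scaled to the summed counts of each library. Fisher's exact tests (scipy 1.17.1) had 0.5 read added in log2 fold changes only. The quasi-likelihood test of edgeR 4.0.16 (R 4.3.3), with filterByExpr and TMM, compared the genotypes over all miRNAs, with SE as the size of the log2 fold change over the square root of F, and DESeq2 1.42.0 was an alternative. TMM factors for Fisher's test came from all 4 libraries at once. Each test was tested on simulated data. Wilson intervals and counts of 3 reads cover counting error only, since PCR copies are not independent. The deviations of the siblings WT1 and APP4 from their genotype means correlated with r = 0.237 across 252 miRNAs, and the sibling block was an alternative.

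Alternatives were values scaled to 1000000 reads and rounded, TMM, a minimum of 10 RPM, Bonferroni, 2-fold limits, 5 reads added, the sibling block, DESeq2, no TMM, no filter, each mouse left out, and 100 reads per hairpin. The markers of neurons, blood cells and vessels and the miR-200 and miR-183 miRNAs were also summed. The members, the marker lists and the list of miRNAs tied to DNA methyltransferases were chosen with earlier results of these data known. Named were the members, miRNAs sharing their seed, neighbours within 10 kb, the 2 most similar miRNAs of each guide strand, and listed miRNAs that a result turns on. The qRT-PCR and target predictions were not analysed here.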

Additional observations from a re-analysis of the deposited data

Results flagged for a closer look

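In 3 members the sibling groups moved in opposite directions, with an FDR under 0.05 by Fisher's exact test in each group. Of the 853 miRNAs tested in both groups, 240 passed this FDR in both, and 107 of these (44.6%) had opposite signs. The log2 fold change was -0.50 between APP4 and WT1 and 0.32 between APP3 and WT2 for miR-148a-3p, 0.68 and -0.29 for miR-148b-5p, and 0.39 and -0.22 for miR-152-3p. The FDR of miR-148a-3p stayed under 0.05 in both groups under each alternative run. For miR-148b-5p and miR-152-3p the adjusted p was 1 in group 2 with Bonferroni, and scaled to 1000000 reads neither passed in either group. The difference between the groups was not tested, because each group holds 1 mouse of each genotype.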

How the results depend on the processing

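Each member value called in the main setting lost its call under the 2-fold limit. Of the values of single members under alternatives, 197 kept both direction and call, 10 lost a call, 2 gained one and 7 changed sign. Most of these values were not called in the main setting. Bonferroni, the 2-fold limit and the minimum of 10 RPM leave log2 fold changes as they are, so no direction could change there. Under the 2-fold limit 0 members were called in any comparison, and scaled to 1000000 reads 0 were called between APP4 and WT1 and 0 between APP4 and APP3. The number of miRNAs called in all, in the order APP4 against WT1, APP3 against WT2, WT2 against WT1 and APP4 against APP3, was 104, 61, 89 and 73. Scaled to 1000000 reads it was 32, 23, 21 and 23, with a minimum of 10 RPM 53, 30, 40 and 40, with Bonferroni 65, 34, 51 and 47, and with the 2-fold limit 50, 23, 38 and 38. TMM kept these counts within 1.5 times, but turned the balance in group 1 from 87 higher and 17 lower to 46 and 36, between the WT mice from 67 and 22 to 55 and 31, and between the AD mice from 46 and 27 to 34 and 40. With 2-fold odds, 17, 15, 14 and 16 hairpins were called in place of 38, 30, 45 and 38, and 0 of the family. A sign change without a call came with TMM for miR-148b-3p in group 2 (-0.0206), and in edgeR for miR-152-3p with no TMM (0.12) and with no filter (0.0016). With the replicate block of sibling pairs, edgeR called 2 miRNAs in place of 0, and no member. Leaving out 1 mouse gave 0 to 21 calls, the 21 without APP3, 5 without APP4 and 3 without WT1, none of them a member, with a log2 fold change from -0.31 to 0.20 for miR-152-3p, from -0.57 to 0.0766 for miR-148a-3p, from -0.24 to 0.35 for miR-148b-5p, from 0.0186 to 0.49 for miR-152-5p, from -0.41 to -0.13 for miR-148b-3p and from -0.34 to -0.18 for miR-148a-5p. The lone mouse was then assumed to vary like the other genotype. Over all these fits the lowest adjusted p of a member was 0.783. The TMM values of the marker lists and of the DNA methyltransferase list were also chosen after seeing the data. Per 1000000 clean reads, an alternative chosen after seeing the data, the means moved by more than the SD of the mice for miR-148a-5p (24.7 in WT, 22.7 in AD mice), miR-148b-3p (834 and 749), miR-148b-5p in WT mice (17.2) and miR-152-3p in WT mice (32.1). All means were lower on this scale because its divisor is larger, for example 31265701 clean reads against 26085776 miRNA reads in WT1. The cause of the other changes was not tested. The depth limits chiefly miR-152-5p, with 182 to 278 reads.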

Other observations

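The first 7 bases of miR-130a-3p, miR-130b-3p and miR-301a-3p are the letters of the miR-148 and miR-152 seed, so that these 3 listed miRNAs carry the same run of bases shifted by 1 position. Their levels were of another order than those of miR-148a-3p. miR-130a-3p had 282 and 238 RPM in WT1 and WT2 and 278 and 272 RPM in APP3 and APP4. In the same order, miR-301a-3p had 259.8 and 192 RPM and then 258 and 247 RPM, and miR-130b-3p had 26.8 and 27.5 RPM and then 38.1 and 33.6 RPM. For miR-130a-3p and miR-301a-3p WT2 was lowest, and the other 3 mice lay close together.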
